A study of Mus musculus with 29 samples.

Results

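The Krtap genes, which code for the keratin-associated proteins of hair and nail, were followed through 29 RNA-seq libraries of mouse digit tissue. Members were chosen by symbol, by a rule set with earlier results of these data known. It took every gene whose symbol starts with Krtap. Symbols were read directly in the time course table and through mapped gene identifiers in the table of the second set. A gene was kept where at least 3 libraries of a table held 10 counts or more. This gave 53 members of 24411 listed genes in the time course (25 subfamilies, all 53 listed were kept) and 57 of 55487 in the second set (27 subfamilies, 58 listed). The member left out was Krtap19-9a, and Krtap28-10, Krtap28-13, Krtap29-1 and Krtap6-3 were found in the second set only.

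The tissue was the left hindlimb digit of mice, cut off distal to its metacarpophalangeal joint, and the nail had been taken off before RNA was made. The time course, counted in days from amputation, held sham-operated animals at day 7 (n = 3), at day 14 (n = 3) and at day 21 (n = 2), in which the surgery was done without a nerve cut. It also held animals with spared nerve injury (SNI), a cut through the tibial and the common peroneal branch of the sciatic nerve, at the same days (n = 3 each). Every time course digit had been amputated through the third phalanx, 5 days after surgery. In the second set all animals, controls too, had SNI, with amputation or without it, at day 7 and day 14 (n = 3 in each of the 4 groups). The labels of the unamputated groups still give days after amputation and a regenerate tissue, and their treatment label was followed. The labels used here state no strain, sex or age.

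Keratin-associated proteins form the matrix in which the keratin filaments of hair shaft and nail are embedded. They fall into high-sulfur and ultra-high-sulfur proteins, rich in cysteine and cross-linked by disulfide bonds, and high glycine-tyrosine proteins, which are made in the cortex of the shaft. In human hair, proteins of the KAP5, KAP10 and KAP12 families and KAP24.1 are known from the cuticle, the outer layer of the shaft. The genes are short, lack introns in most families and lie in clusters beside each other.

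The coding sequences showed this division in part, and they are shown because the expression values below follow it in part. Members were placed in 3 classes by codon content, with thresholds set after their expression had been seen: a tyrosine codon class with at least 10% TAC and TAT codons (16 members, all of the Krtap6, Krtap7, Krtap8, Krtap19, Krtap20, Krtap21 and Krtap22 families with Krtap16-3), a cysteine codon class with at least 30% TGC and TGT codons (21 members, among them the Krtap4, Krtap5, Krtap10 and Krtap28 families and Krtap17-1) and an intermediate class (20 members). Krtap7-1 lay just inside the first threshold at 12.6% and Krtap15 just outside at 8.7%. Krtap10-4 lay just inside the second at 30.3% and Krtap2-4 just outside at 29.8%. Below are the first 120 coding bases from GENCODE M21, 5′ to 3′, with TGC and TGT codons in capitals for 3 members of the cysteine codon class.
Krtap5-5: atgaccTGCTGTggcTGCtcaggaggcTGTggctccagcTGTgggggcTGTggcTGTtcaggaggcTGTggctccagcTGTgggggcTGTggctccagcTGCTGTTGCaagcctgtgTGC
Krtap4-13: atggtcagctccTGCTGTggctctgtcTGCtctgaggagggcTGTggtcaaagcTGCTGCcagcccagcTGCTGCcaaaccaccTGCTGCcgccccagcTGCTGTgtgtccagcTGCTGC
Krtap17-1: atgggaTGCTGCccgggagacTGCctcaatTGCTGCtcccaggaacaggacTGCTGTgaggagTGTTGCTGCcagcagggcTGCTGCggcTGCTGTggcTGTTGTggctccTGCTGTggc
For 3 members of the tyrosine codon class the capitals mark GGN (glycine), TAC and TAT (tyrosine) codons.
Krtap6-2: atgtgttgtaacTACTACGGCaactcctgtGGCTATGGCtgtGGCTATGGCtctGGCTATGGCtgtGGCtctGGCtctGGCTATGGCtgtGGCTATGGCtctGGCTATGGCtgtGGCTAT
Krtap19-1: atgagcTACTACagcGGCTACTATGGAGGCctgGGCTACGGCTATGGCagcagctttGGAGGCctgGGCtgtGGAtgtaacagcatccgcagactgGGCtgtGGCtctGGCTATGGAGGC
Krtap8-1: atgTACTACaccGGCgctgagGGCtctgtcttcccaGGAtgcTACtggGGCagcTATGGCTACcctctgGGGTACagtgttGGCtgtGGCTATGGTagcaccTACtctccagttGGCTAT
In Krtap17-1 18 of these 40 codons were cysteine codons, and in Krtap6-2 25 of 40 were glycine or tyrosine codons. Glycine codons did not separate the classes, and they are left in lower case in the first 3 sequences. They made up 0.3% to 42.0% of codons in the cysteine codon class (34.9% in Krtap17-1) and 17.2% to 46.1% in the tyrosine codon class. Cysteine codons made up to 16.7% in the tyrosine codon class. Coding sequences of the tyrosine codon class were short, between 171 and 465 bases, against 327 to 1101 bases in the cysteine codon class and 294 to 1506 in the intermediate class.

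Total counts per library lay between 35654192 and 56809440 in the time course and between 31274245 and 43315729 in the second set. Krtap genes held between 0.01956% and 0.8127% of the counts of a time course library and between 0.06357% and 0.4439% in the second set. Levels below are CPM, a gene's counts relative to the size of its library, with sizes scaled by TMM, a normalization that takes most genes as unchanged. Differences between groups were tested with the quasi-likelihood test of edgeR in 1 fit per table, with p adjusted by Benjamini-Hochberg over the 16084 or 17475 genes that passed its filter; the filter kept all 53 and all 57 members. Each library is a biological replicate by its label. A pair of time course libraries stood apart, with TMM factors of 0.633 (sham day 21, replicate 1) and 0.761 (SNI day 7, replicate 2) against 0.943 to 1.107 in the others. The SNI day 7 library held only 8450 Krtap counts, and its summed CPM of 10 neutrophil genes was 14500, against 269 at most in any other time course library. The sham day 21 library held 1920 CPM of 6 erythroid genes, against 1070 at most elsewhere. In whole tissue, fewer cells of a type and less RNA per cell cannot be told apart.

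Per kilobase of transcript, the most abundant Krtap gene was the same in both tables. Krtap7-1, a high glycine-tyrosine gene, had a mean of 383 CPM per kb in the time course and 245 in the second set. Krtap8-1, of the same kind, followed at 288 CPM per kb in the time course, and Krtap3-3 (203) and Krtap3-1 (199), high-sulfur genes, came next. In the second set Krtap3-1 stood at 175, Krtap8-1 at 167 and Krtap3-3 at 137 CPM per kb. These means hide a wide spread, since Krtap7-1 ranged from 40.5 to 882 CPM per kb over the 17 time course libraries and from 115 to 487 over the 12 of the second set, so that neighbours in this order overlapped. The lowest levels in the time course were those of Krtap20-2 (3.37 CPM per kb) and Krtap9-5 (3.28). Families of 1 codon class thus lay at both ends: Krtap19-1 and Krtap19-4, which share the tyrosine codons of Krtap7-1, had means of only 4.79 and 5.28 CPM per kb.

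**Figure D1:**
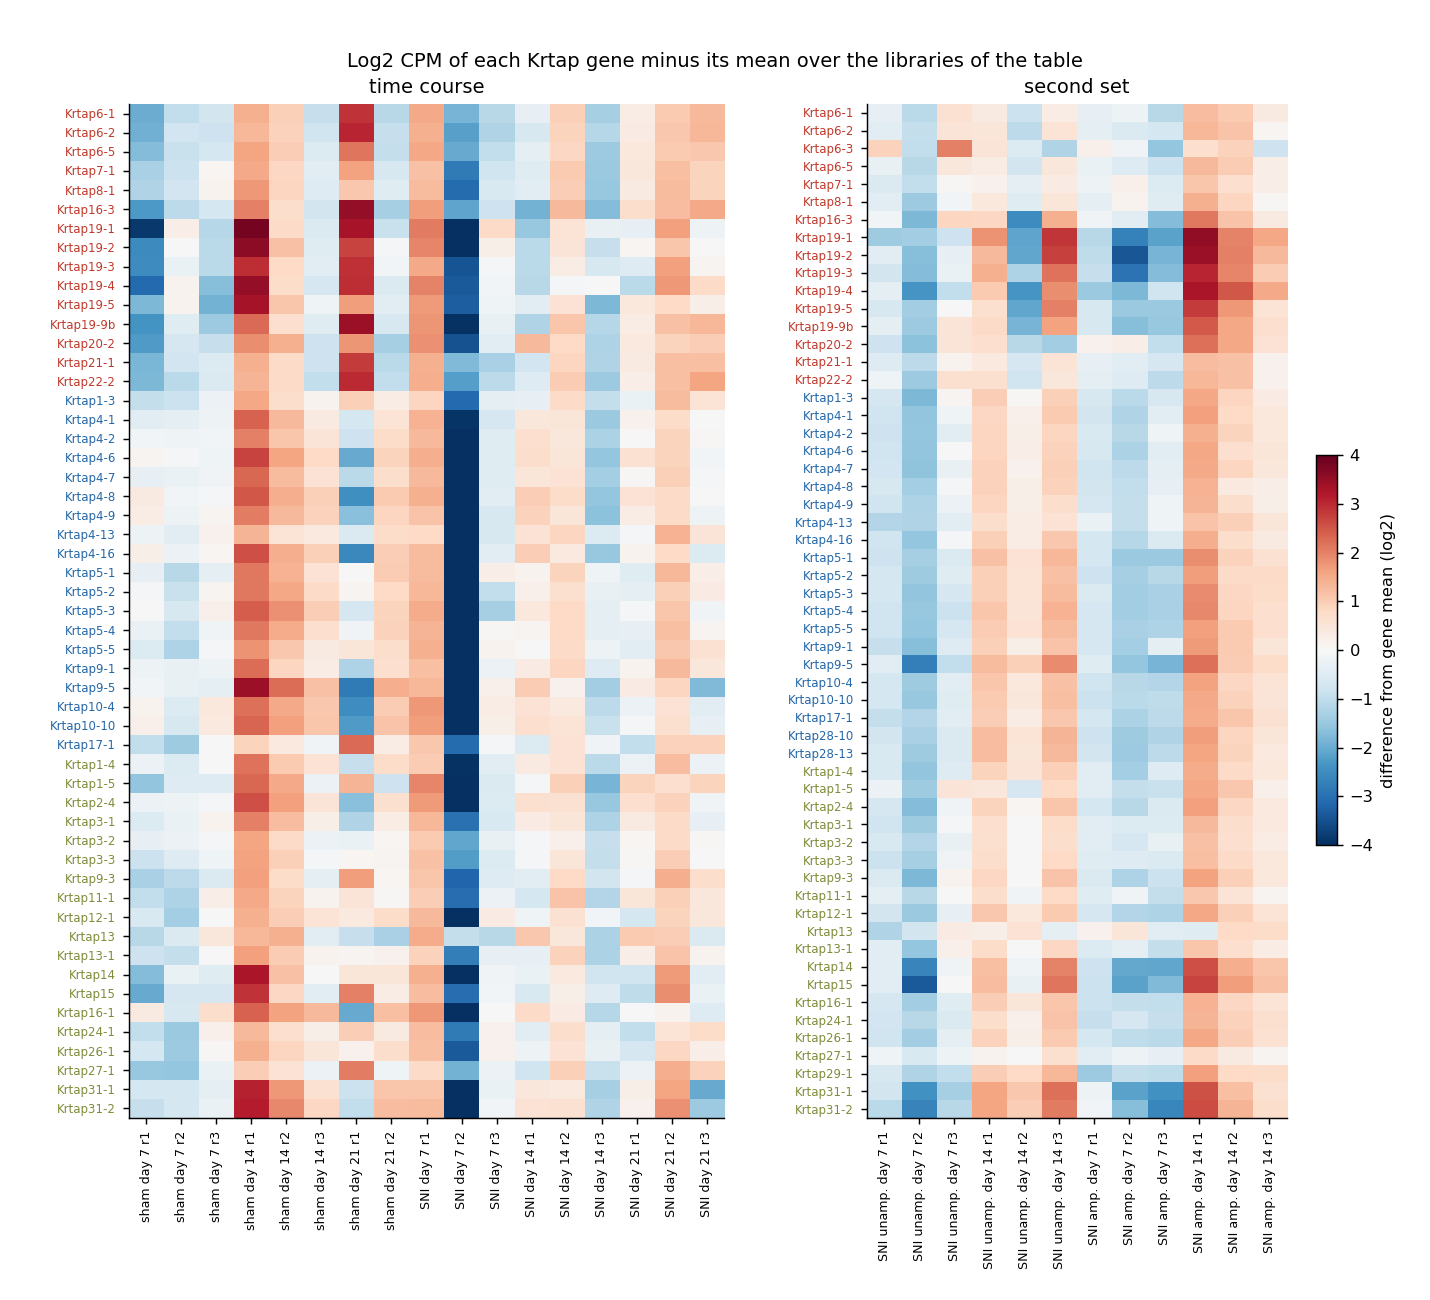
Heat maps of log2 CPM (prior count 2) of each Krtap gene minus its own mean over the libraries of the table, for the 53 members of the time course and the 57 of the second set in each library, with colours that saturate at a difference of 4 and gene names coloured by codon class (red tyrosine, blue cysteine, green intermediate). SNI day 7 replicate 2 is low for nearly all genes, and sham day 21 replicate 1 is high for genes in red and low for many in blue.

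In amputated SNI digits of the second set, Krtap genes were higher at day 14 than at day 7. All 57 members had a positive log2 fold change, with a median of 1.85 (3.61-fold) where the median of all genes tested was 0. The groups did not overlap for 54 of 57 members, against a background of 8.78% of all genes tested, and 16 passed the test, all higher (background 0.578%). The 3 members whose groups overlapped were Krtap13, Krtap6-3 and Krtap8-1. The 16 called members were all 5 of the Krtap5 family, both of Krtap10 and both of Krtap28, with Krtap12-1, Krtap16-1, Krtap17-1, Krtap24-1, Krtap26-1, Krtap29-1 and Krtap4-13. They made up 15.8% of the 101 genes called higher in this comparison.

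Krtap5-5, an ultra-high-sulfur gene, stood at 15.4, 10.0 and 10.5 CPM at day 7 and at 78.4, 51.0 and 39.7 CPM at day 14 in these amputated digits. Every day 14 library was above every day 7 library, and the rise was 2.24 on the log2 scale (SE 0.311, n = 3 against 3, adjusted p = 0.0107, edgeR). Krtap17-1, whose first codons are shown above, went from 30.1, 20.5 and 23.7 CPM to 138, 106 and 75.1 CPM. It rose by 2.10 (SE 0.287, adjusted p = 0.0107, edgeR), again with no overlap. Krtap24-1, whose human counterpart is a cuticle protein, had the smallest p of the family, at 6.33, 7.57 and 6.46 CPM against 31.5, 22.9 and 19.1 CPM. Its rise was 1.85 (SE 0.243, adjusted p = 0.00626, edgeR). Krtap16-1 differed in a similar way, from 35.3, 32.7 and 32.1 CPM at day 7 to 169, 112 and 92.9 CPM at day 14. Its 3 day 7 libraries were almost level, and it rose by 1.90 (SE 0.269, adjusted p = 0.011, edgeR). The largest rise among the called members was that of Krtap5-1 at 2.43 (SE 0.364), and the smallest was that of Krtap4-13 at 1.32 (SE 0.255, adjusted p = 0.0409, edgeR).

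The count of called members depended on 2 day 7 libraries of the amputated group. It was 0 without replicate 2 and 1 (Krtap29-1) without replicate 3, while it lay between 11 and 19 when any of the other 10 libraries was left out. With DESeq2 43 members passed, which included all 16.

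In SNI digits that were not amputated, Krtap genes were also higher at day 14. Of 57 members, 56 had a positive log2 fold change between day 7 and day 14, with a median of 1.52 (2.86-fold). Groups did not overlap for 33 members (background 5.59%), and 7 passed the test, all higher (background 0.303%). These were Krtap10-10, Krtap16-1, Krtap17-1, Krtap24-1, Krtap29-1, Krtap4-13 and Krtap5-5, and each of the 7 was also among the 16 of the amputated digits. The amputated and unamputated groups share no library, though both contrasts use the spread estimated over all 12.

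Krtap5-5 stood at 14.1, 8.44 and 15.7 CPM at day 7 and at 50.2, 37.3 and 59.5 CPM at day 14 without amputation. The groups were apart, and the rise was 1.94 (SE 0.309, n = 3 against 3, adjusted p = 0.04, edgeR). Krtap29-1, a gene of low level, went from 0.702, 0.459 and 0.549 CPM to 2.31, 1.99 and 2.91 CPM. It rose by 2.07 (SE 0.319, adjusted p = 0.0313, edgeR), with all 3 day 14 libraries above those of day 7. Krtap17-1 went from 25.6, 21.8 and 36.2 CPM to 97.8, 60.4 and 103 CPM, also apart, a rise of 1.65 (SE 0.283, adjusted p = 0.0499, edgeR). Krtap4-13 and Krtap10-10 had the same adjusted p of 0.0499 (edgeR), next to the threshold of 0.05. The count of 7 was accordingly unsteady. It became 0 without amputated day 7 replicate 1, 2 or 3, amputated day 14 replicate 2, unamputated day 7 replicate 1 or 2, or unamputated day 14 replicate 1 or 3, and 1 without unamputated day 7 replicate 3. It was 16, 13 and 11 without amputated day 14 replicate 1, amputated day 14 replicate 3 and unamputated day 14 replicate 2, and DESeq2 called 26.

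**Figure D2:**
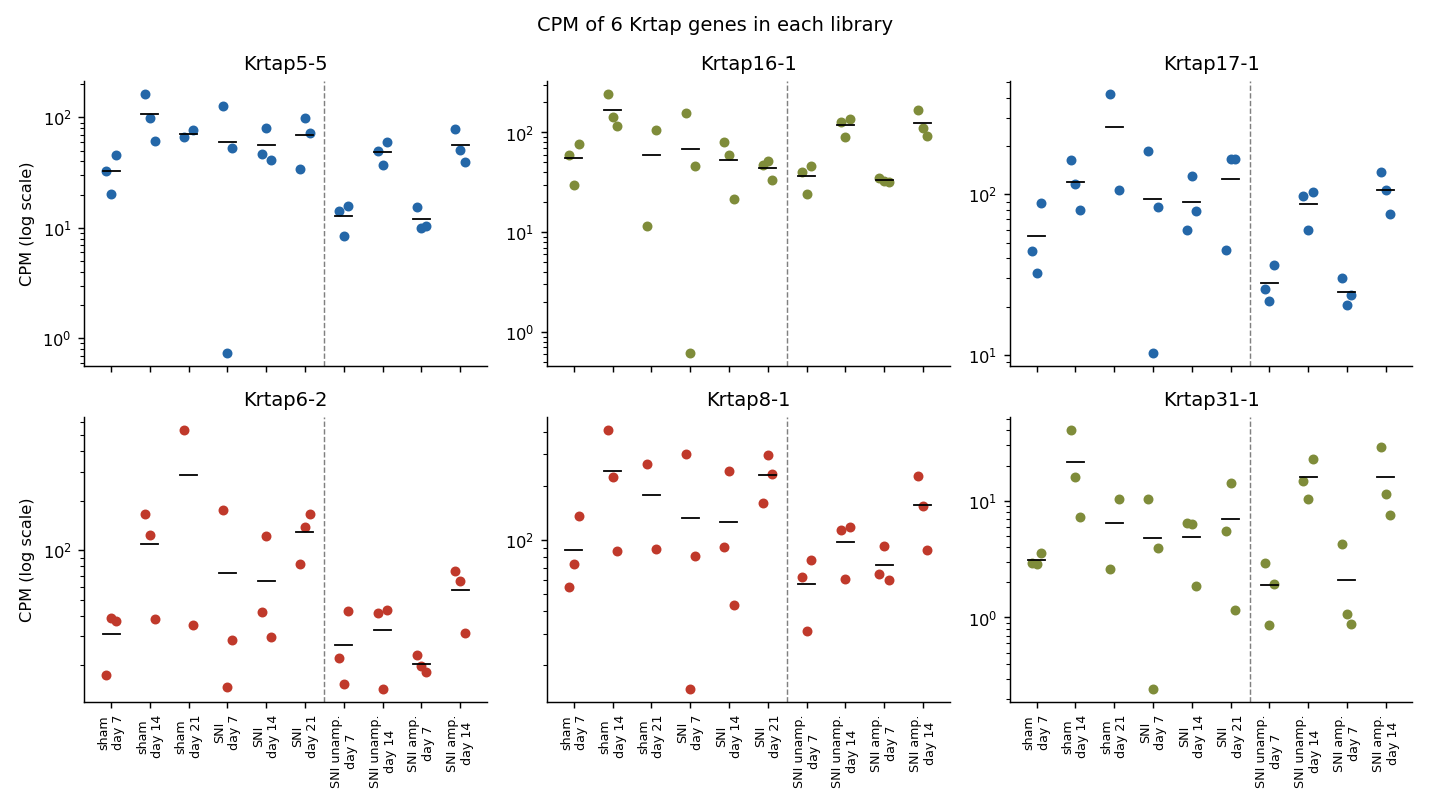
CPM of 6 Krtap genes (log axis) in each library, with points for libraries, bars for group means, the 6 time course groups left of the dashed line and the 4 groups of the second set right of it. In the second set Krtap5-5, Krtap16-1 and Krtap17-1 are higher at day 14 than at day 7 in every library with and without amputation, while the groups of Krtap6-2 without amputation overlap.

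The size of the day difference varied across families, as a description with no test between classes. In unamputated digits the median log2 fold change of the cysteine codon class was 1.72 (21 members, 20 without overlap and 4 called) and that of the tyrosine codon class 0.59 (16 members, 0 without overlap and 0 called, 4 with an unadjusted p under 0.05, lowest adjusted p 0.665). In amputated digits the class medians were 2.03 and 1.70, with 21 of 21 and 14 of 16 members without overlap, and 11 and 0 called. Within the tyrosine codon class the families themselves differed. The 6 Krtap19 members had a median of 4.19 in amputated and 2.29 in unamputated digits, whereas 4 Krtap6 members had medians of 1.44 and 0.20.

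Krtap6-2 is an example of the second kind. It stood at 22.1, 15.4 and 42.7 CPM at day 7 and at 41.4, 14.3 and 43.1 CPM at day 14 in unamputated digits, and these groups overlapped. Its log2 fold change was 0.30 (SE 0.490, 95% interval -0.80 to 1.40). With amputation it went from 23.1, 19.8 and 18.1 CPM to 74.8, 65.5 and 31.3 CPM, apart but not called, with a log2 fold change of 1.49 (SE 0.497, adjusted p = 0.261, edgeR).

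Krtap19-1 is an example of the first, at levels near the detection limit. It stood at 0.112, 0 and 0.0267 CPM at day 7 and 4.07, 1.35 and 0.973 CPM at day 14 in amputated digits. In unamputated digits day 14 replicate 2 stood at 0.0284 CPM, within the range of day 7 (0.078, 0.0809 and 0.144 CPM), while replicates 1 and 3 stood at 1.17 and 2.55 CPM. Its fitted log2 fold changes of 5.37 (SE 1.27) and 3.60 (SE 1.18) did not pass, with adjusted p of 0.113 and 0.665 (edgeR).

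The 1 member with a negative value was Krtap6-3. It stood at 7.15, 1.83 and 15.3 CPM at day 7 and 5.29, 2.53 and 1.58 CPM at day 14 without amputation, with overlap and a log2 fold change of -1.37 (SE 0.778, 95% interval -3.11 to 0.37). Among the larger positive values, Krtap31-1, an intermediate member, stood at 2.94, 0.863 and 1.94 CPM at day 7 and at 14.8, 10.4 and 22.7 CPM at day 14 in the same digits. These groups were apart with a log2 fold change of 3.06 (SE 0.746), yet it was not called (adjusted p = 0.304, edgeR).

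**Figure D3:**
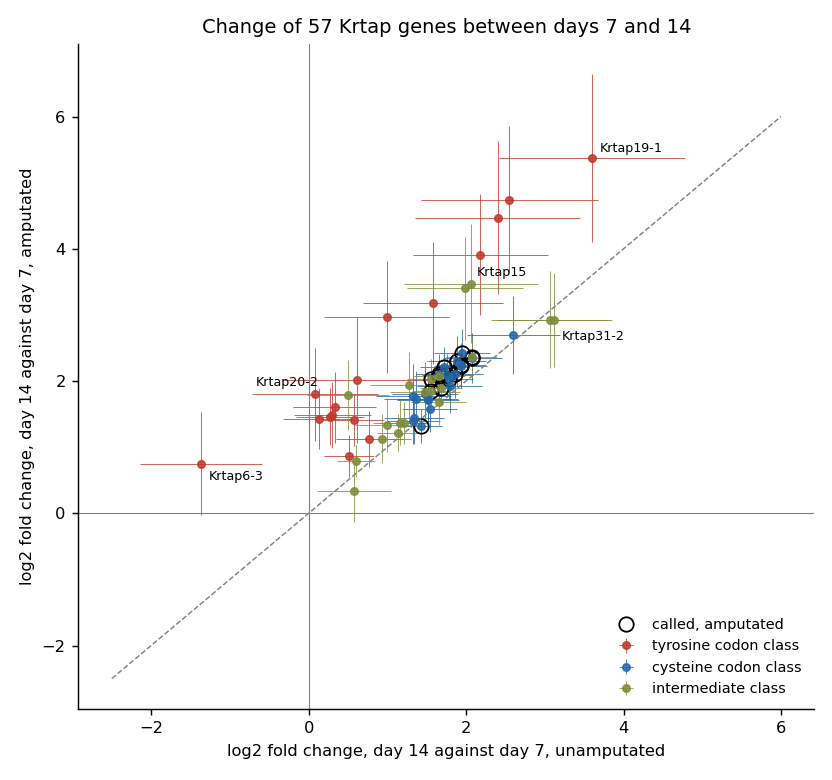
Log2 fold change between day 7 and day 14 of each of 57 Krtap genes in unamputated (x axis) and amputated (y axis) SNI digits, with bars for 1 SE, colours for codon class, rings around the 16 members called in amputated digits and a dashed line where both are equal. Ringed points lie between 1.32 and 2.43 on the y axis, while members of the tyrosine codon class spread from 0.75 to 5.37 on it and from -1.37 to 3.60 on the x axis.

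Amputation itself gave no called Krtap difference at either day. At day 7, 0 of 57 members passed by edgeR (background 1.35%), by DESeq2 also 0, 0 had an unadjusted p under 0.05, and the median log2 difference of amputated against unamputated digits was -0.14. At day 14, 0 passed by edgeR (background 2.75%) and 0 by DESeq2, 1 had an unadjusted p under 0.05 (Krtap20-2), and the median was 0.30 with a positive value for all 57 members. The median fell to -0.05 without amputated day 14 replicate 1, the library with the most Krtap counts of the second set, and to 0.09 without unamputated day 14 replicate 2, the day 14 library with the fewest.

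By class, the day 14 medians of amputated against unamputated digits were 0.22 (cysteine codon), 0.26 (intermediate) and 0.82 (tyrosine codon). Krtap6-1 was the 1 member whose groups did not overlap (background 15.9%), with 43.9, 38.8 and 23.9 CPM in amputated and 23.8, 10.2 and 22.5 CPM in unamputated digits. The closest libraries of the 2 groups differed by little, and its log2 difference of 0.92 (SE 0.457, adjusted p = 0.254, edgeR) did not pass. The test of whether the day difference depends on amputation called 0 members by edgeR (background 0.0%) and 0 by DESeq2, with 0 at an unadjusted p under 0.05 and a median of 0.35. Krtap6-1 had the smallest p, at 1.31 (SE 0.649, 95% interval -0.14 to 2.75).

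The share of all Krtap CPM that came from the tyrosine codon class gives the same contrast within each library. In amputated digits it was 26.4%, 33.7% and 23.1% at day 7 and 21.2%, 23.7% and 19.6% at day 14. In unamputated digits it was 25.5%, 26.2% and 27.7% at day 7 and 16.9%, 14.1% and 17.2% at day 14. Day 14 values without amputation lay below all others of the second set, and those with amputation touched the day 7 range only at replicate 2. This share sums over members chosen with the values known, and no test was made of it.

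In sham digits of the time course, all 53 members had a positive log2 fold change between day 7 and day 14, with a median of 1.79 (3.45-fold). Groups did not overlap for 36 members (background 8.11%). Of 53 members, 0 were called by edgeR (background 0.0%, 11 members at an unadjusted p under 0.05) and 0 by DESeq2. The common biological coefficient of variation was 0.393 in this table, against 0.17 in the second set.

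Krtap31-1 stood at 2.90, 2.89 and 3.59 CPM at day 7 and at 40.5, 16.0 and 7.29 CPM at day 14 in sham digits. All day 14 values were higher but lay far from each other, and the log2 fold change of 2.76 had an SE of 1.10 (adjusted p = 1.0, edgeR). Krtap5-5 stood at 32.7, 20.1 and 46.0 CPM and then 163, 99.5 and 60.7 CPM, apart as well. For Krtap8-1 the groups overlapped, at 54.7, 73.4 and 136 CPM against 412, 225 and 87.1 CPM. Across the 3 sham day 14 libraries, replicate 1 was highest and replicate 3 lowest in all 6 plotted members, and without replicate 1 the median fell to 1.26.

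Day 21 of the sham digits rested on 2 libraries that disagreed about which Krtap genes were high. The median against day 7 was 1.06, 15 members did not overlap (background 9.89%), 11 had an unadjusted p under 0.05 and 0 were called by edgeR (background 0.0%) or by DESeq2. Krtap6-2 stood at 541 CPM in replicate 1, the highest of all 17 libraries, and at 35.1 CPM in replicate 2, within the day 7 range of 17.4 to 38.6 CPM. Krtap16-1 did the opposite, with 11.6 CPM in replicate 1 and 107 CPM in replicate 2, where day 7 held 60.1, 29.9 and 75.9 CPM. The 2 genes thus differed in opposite directions between 2 libraries of 1 group.

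That split followed codon content in most members but not all. The class thresholds were set after expression had been seen, so the counts by class describe the split and do not test it. All 15 tyrosine codon members were higher in replicate 1 and 17 of 19 cysteine codon members in replicate 2, while of 19 intermediate members 7 were higher in replicate 1 and 12 in replicate 2. The tyrosine codon class made up 61.6% of Krtap CPM in sham day 21 replicate 1 and 15.1% in replicate 2, against 17.0% to 43.8% in the other 15 time course libraries. Its mean log2 CPM was 6.44 and 3.08 in the 2 libraries, while that of the cysteine codon class was 3.62 and 5.38. The 2 cysteine codon members that were higher in replicate 1 were Krtap17-1, with 422 against 107 CPM, and Krtap1-3, with 124 against 78.5 CPM. Intermediate members higher in replicate 1 included Krtap9-3, with 215 against 72.2 CPM, and Krtap1-5, with 119 against 25.8 CPM. Without replicate 2, 10 members were called at day 21 against day 7 (Krtap6-1, Krtap6-2, Krtap6-5, Krtap16-3, Krtap17-1, Krtap19-3, Krtap19-9b, Krtap21-1, Krtap22-2 and Krtap27-1), with the lone library assumed to vary like the other groups, and 0 without replicate 1. Replicate 1 is the library with the low TMM factor and the erythroid counts given above. Summed marker levels of other tissues also differed between replicates 1 and 2. They were 504 against 5340 CPM for bone, 44800 against 76100 for differentiated epidermis and 2030 against 728 for sebaceous gland. Hair lists differed unevenly. Type I hair and nail keratins held 2540 against 1400 CPM and other hair shaft genes 2490 against 769. Regulators of hair and nail matrix held 302 against 682 CPM, and type II keratins were near each other at 1300 and 1250. Myelin genes were alike, at 329 and 330 CPM. The part of these in the Krtap difference was not tested.

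**Figure D4:**
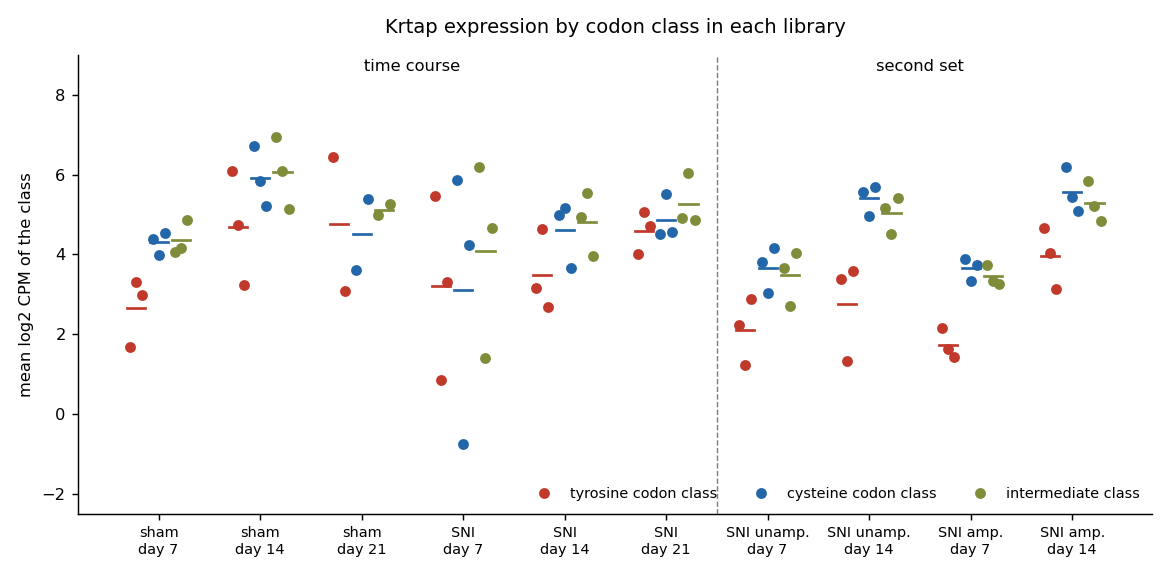
Mean log2 CPM of the members of each codon class in each library, with points for libraries, bars for group means and a dashed line between the 2 tables, which were normalized apart. Sham day 21 replicate 1 is the highest point of the tyrosine codon class at 6.44, and SNI day 7 replicate 2 is the lowest point of the cysteine codon class at -0.75.

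SNI against sham digits, the comparison that asks whether loss of nerve input changes expression during regeneration, gave 0 called members at each day and in the average over days. At day 7 the median log2 difference was 0.64 (51 of 53 positive), with 0 called by edgeR (background 0.0%) or DESeq2 and 0 at an unadjusted p under 0.05. SNI libraries differed widely among themselves. Krtap5-5 stood at 128, 0.730 and 52.8 CPM in SNI digits against 32.7, 20.1 and 46.0 CPM in sham digits, so that SNI values lay on both sides of all sham values. The median became 1.24 without SNI day 7 replicate 2 and -0.55 without SNI day 7 replicate 1. In replicate 2 the cysteine codon class lay lower than the tyrosine codon class, at a mean log2 CPM of -0.75 against 0.84. That library also held summed hair keratin levels of 309 (type I) and 219 CPM (type II), against at least 609 and 394 in the other time course libraries. Its bone genes held 116 CPM, against 7370 and 1820 in SNI day 7 replicates 1 and 3. Wound and nail bed keratins held 10300 CPM (2050 and 1900 in those replicates) and basal epidermis genes 15600 (7530 and 9190). The part of these, and of the neutrophil counts given above, in the low values was not tested.

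At day 14 all 53 members had a negative difference of SNI against sham, with a median of -1.23 (0.427-fold). Of these, 11 did not overlap and were lower in SNI (background 12.2%), 0 were called by edgeR (background 0.0%) or DESeq2 and 0 had an unadjusted p under 0.05. The 11 members are 20.8% of the 53, where the share of all genes was 12.2%. Members varied together over the libraries of the time course, with a Pearson r with their mean of 0.615 to 0.973. The 11 are therefore not separate results, and no excess is read from this count. Krtap31-1 stood at 6.45, 6.28 and 1.86 CPM in SNI digits and 40.5, 16.0 and 7.29 CPM in sham digits, apart by less than 1 CPM (log2 difference -2.13, SE 1.07, 95% interval -4.43 to 0.18). Krtap19-5 had the smallest p, at -2.40 (SE 1.13, adjusted p = 0.578, edgeR), and its groups overlapped. The median was -0.61 without sham day 14 replicate 1 and -0.87 without SNI day 14 replicate 3. SNI day 14 libraries also differed in summed marker levels. Replicates 1, 2 and 3 held 13000, 1660 and 1210 CPM of bone genes and 9300, 1990 and 2640 CPM of wound and nail bed keratins. The part of these in the differences was not tested. At day 21 the median was -0.06 with 1 member without overlap (Krtap13, higher in SNI, background 4.36%), and averaged over the days it was -0.23, with 0 members called in either by edgeR (background 0.0%) or DESeq2 and 0 at an unadjusted p under 0.05.

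Within SNI digits of the time course, the median log2 fold change was -0.08 at day 14 and 0.31 at day 21, both against day 7. In both, 0 members were called by edgeR (background 0.0%) or DESeq2, and 0 had an unadjusted p under 0.05. The day 14 median was 1.31 without SNI day 7 replicate 1 and -0.68 without SNI day 7 replicate 2, and the day 21 median was 1.74 and -0.29 without the same libraries, and -0.07 without SNI day 21 replicate 2. Amputated SNI digits of the second set, which carry the same labels for surgery, amputation and day, thus held a median of 1.85 where those of the time course held -0.08. The tables were normalized apart and were not tested against each other.

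The sequence just before the transcription start was examined because members of several families rose in the same comparison. RefSeq promoters of build GRCm38.p6 were found for 51 of the 57 members. In the 60 bases before the start, the letters TATAAA on the gene's strand were found for 37 of 51 Krtap genes (72.5%) and for 944 of all 32851 promoters (2.87%). The share was 14 of 17 in the cysteine codon class, 15 of 19 in the intermediate and 8 of 15 in the tyrosine codon class. The first T of the match lay 27 to 55 bases before the start, with a median of 31. The 60 bases are given 5′ to 3′ on the gene's strand, with TATAAA in capitals, for called members of 4 families and for 2 members of the tyrosine codon class that were not called.
Krtap5-5 (chr7:142229972-142230031, minus strand): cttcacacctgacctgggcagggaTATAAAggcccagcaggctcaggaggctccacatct
Krtap5-2 (chr7:142176006-142176065, minus strand): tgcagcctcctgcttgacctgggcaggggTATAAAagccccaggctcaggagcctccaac
Krtap17-1 (chr11:99993995-99994054, minus strand): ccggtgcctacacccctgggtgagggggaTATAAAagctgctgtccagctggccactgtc
Krtap24-1 (chr16:88612280-88612339, minus strand): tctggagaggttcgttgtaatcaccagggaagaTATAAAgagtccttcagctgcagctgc
Krtap29-1 (chr11:99979101-99979160, minus strand): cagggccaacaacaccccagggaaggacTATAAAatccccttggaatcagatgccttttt
Krtap8-1 (chr16:89487953-89488012, minus strand): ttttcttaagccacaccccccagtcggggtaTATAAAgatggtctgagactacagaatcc
Krtap6-2 (chr16:89420112-89420171, minus strand): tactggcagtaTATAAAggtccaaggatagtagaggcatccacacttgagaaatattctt
In Krtap6-2 the match lies 49 bases before the start, against 36 in Krtap5-5. Krtap19-2 held no match in this window, nor did Krtap5-3 and Krtap5-4, which were called in amputated digits. Only the exact letters were counted, so that tatataag, found in Krtap14, Krtap15, Krtap19-3, Krtap19-4 and Krtap3-3, was not a match. Searched on both strands over the whole 300 bases of each promoter, TATAAA was found for 42 of 51 (82.4%) against 13.6% of all promoters, and CTTTGAA, a motif of LEF1 and TCF factors, for 9 of 51 (17.6%) against 5.1%. The other 3 motifs searched in the same way were CTTTGTT, found for 7 (13.7%, against 5.9% of all promoters), AACAAT, for 12 (23.5%, against 10.7%), and TTTACG, for 1 (2.0%, against 3.0%). A match of letters is a description and shows no binding.

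Some members share long runs of sequence, where a short read does not tell them apart. Krtap3-2 and Krtap3-3 have the same 297 coding bases but share only 28.9% and 41.3% of the 50-base windows of their transcripts, and they were counted at different mean levels (76.6 and 149 CPM in the time course). Krtap31-1 and Krtap31-2 differ at 6 of 531 coding bases (98.9% identity). Krtap6-1 and Krtap6-5 differ at 5 of 234, and the pair is shown whole, with the differing bases in capitals.
Krtap6-1: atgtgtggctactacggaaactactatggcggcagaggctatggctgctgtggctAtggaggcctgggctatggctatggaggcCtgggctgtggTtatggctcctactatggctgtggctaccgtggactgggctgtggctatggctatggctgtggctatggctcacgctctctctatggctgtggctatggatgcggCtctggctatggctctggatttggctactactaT
Krtap6-5: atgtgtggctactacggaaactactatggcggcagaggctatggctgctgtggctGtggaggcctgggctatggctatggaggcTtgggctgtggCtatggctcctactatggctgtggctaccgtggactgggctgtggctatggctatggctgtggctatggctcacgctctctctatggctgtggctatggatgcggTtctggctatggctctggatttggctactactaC
Their levels were near each other in most libraries, for example 111 CPM for Krtap6-1 and 135 CPM for Krtap6-5 in sham day 14 replicate 1. In sham day 21 replicate 1 they stood further apart and in the other order, at 312 and 200 CPM.

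Over whole transcripts, 15 of 57 members shared at least 20% of their 50-base windows with other annotated genes, and 17 shared none. Of the 16 members called in amputated digits, 6 were among the former and 5 among the latter. Krtap4-13 shared 81.3%, mostly with Gm11554, Krtap5-1 60.6%, Krtap10-10 44.4%, Krtap10-4 42.0%, Krtap5-5 36.3% and Krtap5-2 28.6%. The counts of these 6 members, Krtap5-5 among them, are uncertain as to the gene. Krtap16-1, Krtap17-1, Krtap24-1, Krtap26-1 and Krtap29-1 were called and shared no window.

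Genes that surround the Krtap proteins in the hair shaft had positive medians in the same comparisons. Hair and nail keratins form the filaments that the Krtap matrix embeds. Of 9 of type I, 3 were called higher at day 14 in amputated digits (Krt32, Krt40 and Krt39) and 2 in unamputated digits (Krt40 and Krt32). Medians against day 7 were 1.19 and 1.11, and all 9 were positive in both. Krt32, a keratin of the cuticle, rose by 1.86 (SE 0.203, adjusted p = 0.00555) and by 1.33 (SE 0.201, adjusted p = 0.0313, both edgeR). Of 6 type II keratins tested 1 was called higher in each, which was Krt82, also of the cuticle. Krt82 rose by 1.64 (SE 0.169, adjusted p = 0.00336) and by 1.29 (SE 0.167, adjusted p = 0.0231, both edgeR). These medians lay below those of the Krtap genes, 1.85 and 1.52, and the difference was not tested.

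Of 10 other hair shaft genes tested, 3 were called higher in amputated (S100a3, a cuticle calcium-binding protein, Crym and Padi3) and 2 in unamputated digits (Crym and Padi3). Of 11 inner root sheath genes, which build the sheath around the growing shaft, 1 was called higher in each (Padi3, which is on both lists). Their medians were 1.29 and 1.53. Of 12 regulators of hair and nail matrix, such as Hoxc13, Foxn1, Dlx3 and Msx2, 0 were called in either by edgeR, with 3 and 2 at an unadjusted p under 0.05 and medians of 0.26 and 0.21. Hoxc13, a homeobox factor known to act on hair keratin genes, had a log2 fold change of 0.31 (SE 0.131, adjusted p = 0.342, edgeR) with amputation.

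Where medians are given below, markers of other cell types and tissues had smaller positive or negative medians between these days. Medians of day 14 against day 7 were -0.06 and -0.07 for 6 genes of basal epidermis, 0.26 and 0.03 for 13 of differentiated epidermis, -0.04 and 0.04 for 9 of outer root sheath and follicle stem cells, and -0.23 and -0.10 for 10 of sebaceous gland, in amputated and unamputated digits. Of 5 genes of the companion layer, which lies between the root sheaths, 1 was called higher with amputation (Krt17, by 0.73, SE 0.113, adjusted p = 0.0109, edgeR). Without it 0 were called by edgeR (3 at an unadjusted p under 0.05), and the medians were 0.51 and 0.34. Lists of 5 erythroid (-0.69 and 0.57), 5 muscle (-0.65 and -0.28) and 6 myelin genes (-0.65 and 0.13) held no called member by edgeR. Bone genes had medians of 0.94 and 0.04, with summed levels between 940 and 2070 CPM at day 7 and at 8260, 1280 and 7160 CPM at day 14 with amputation. With amputation, summed levels at day 7 and day 14 were 294 to 340 and 342 to 377 CPM for sweat gland genes. They were 1530 to 2230 and 2210 to 3580 CPM for wound and nail bed keratins. Dermal papilla genes held 107 to 163 and 95.5 to 116 CPM, and neutrophil genes 20.8 to 132 and 17.7 to 113. Without amputation, sweat gland genes held 398 to 414 and 383 to 399 CPM, and wound and nail bed keratins 2100 to 3120 and 1940 to 2620. Whether cell makeup has a part in the Krtap differences was not tested.

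Among genes without a Krtap symbol, those ranked 1 and 2 by how closely their log2 CPM followed the mean of the members were hair keratins in both tables. Over the 17 time course libraries these were Krt33a (Pearson r = 0.978) and Krt34 (0.969), with Gprc5d (0.959), a receptor-like protein of hair-forming cells, and Gja3 (0.958) also near the top, among genes that have only model names. Over the 12 libraries of the second set they were Krt86 (0.987) and Krt33a (0.986), followed by gene models. The correlations share libraries and their scaling, and are given as a description.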

How the data were processed

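Poly(A) RNA of mouse digits was sequenced from strand-specific libraries. The authors deposited whole-number counts, not normalized, for each gene of each library in 2 tables. Per the submitters' processing notes the genome was GRCm39. Aligner and counting tool: not given in the sources used here. GENCODE M21 (GRCm38) gave symbols (55227 of 55487 identifiers, 99.5%), transcript lengths and coding sequences, and RefSeq GRCm38.p6 gave promoters; only the coordinates of those promoters are printed. Every column matched a sample.

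The tables were fitted apart with a mean per group: filterByExpr (minimum count 10, minimum total 15), TMM, glmQLFit with robust dispersions and glmQLFTest (edgeR 4.0.16, R 4.3.3), Benjamini-Hochberg over all genes tested, called at an adjusted p under 0.05. CPM uses TMM-scaled library sizes, and log2 CPM a prior count of 2. P-values measure the spread between these libraries. The procedure was tested on simulated data.

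Members and lists were chosen with earlier results of these data known, and codon classes after the values were seen. Named genes are the members with the highest mean CPM per kb of their subfamily, the called members (up to 10 by p) or else the 5 with the smallest p, up to 4 genes of another list by p, and the genes most like the member mean; others were added after their values were seen to show the spread. Alternatives were RLE size factors, no filter, DESeq2 1.42.0, only the groups compared, replicate number as a block, each library left out, and the time course without both libraries of low TMM factor.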

Additional observations from a re-analysis of the deposited data

How the results depend on the processing

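The direction of the median over members between day 7 and day 14 held in amputated (1.42 to 2.08), unamputated (1.29 to 1.85) and sham digits (1.26 to 2.08) with any library left out. Counts of called members did not hold: those in amputated digits lay between 0 and 19 with a library left out, and were 2 without the filter, 43 by DESeq2 and 26 with a replicate block, against 16. In unamputated digits they lay between 0 and 16, and were 4 with RLE size factors, 1 without the filter, 26 by DESeq2, 20 with a replicate block and 0 from only the groups compared, against 7. At day 21 of sham digits they lay between 0 and 10. The cause was not tested.

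Correlations of same-numbered libraries did not settle whether replicate numbers pair the samples. They lay between -0.79 and 0.77 in the time course (18 of 40 pairs over 0.1). In the second set they lay between -0.20 and 0.14 (1 of 18 pairs over 0.1). The replicate block serves only as an alternative.

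Single named members reversed, given as log2 fold changes over all settings that left out a library. SNI against sham at day 7 ran from -0.14 to 2.38 for Krtap20-2, -0.36 to 1.86 for Krtap6-5, -0.30 to 1.94 for Krtap6-1 and -0.13 to 2.16 for Krtap16-3, negative without SNI day 7 replicate 1. At day 21 it ran from -1.76 to 0.22 for Krtap17-1, -2.41 to 1.64 for Krtap19-9b, -2.27 to 0.80 for Krtap19-3 and -2.69 to 1.62 for Krtap19-1, positive without sham day 21 replicate 1. Averaged over days it ran from -1.14 to 0.05 for Krtap19-3, -1.28 to 0.26 for Krtap19-1 and -1.07 to 0.49 for Krtap9-5, and without both libraries of low TMM factor it was 0.07 for Krtap19-2, 0.23 for Krtap19-3 and 0.45 for Krtap19-1. Sham day 21 against day 7 ran from -0.14 to 4.72 for Krtap16-3. SNI day 14 against day 7 ran from -1.78 to 0.42 for Krtap19-2, -1.72 to 0.66 for Krtap19-4 and -1.48 to 0.75 for Krtap19-5, positive without SNI day 7 replicate 1. Of the values of named members under alternatives, 1316 kept direction and side of the threshold, 110 kept direction and lost the call, 5 gained one and 23 reversed.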
